A study of Mus musculus with 15 samples.

Results

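The genes described here encode the Wnt ligands, their receptors and coreceptors, their secreted inhibitors and 4 genes that report or limit signaling, measured by RNA sequencing in mouse kidney and lung. Members were the protein-coding genes whose symbol begins with Wnt, Fzd, Sfrp or Dkk followed by a digit, with Frzb, Wif1, Lrp5, Lrp6, Axin2, Lgr5, Rnf43 and Znrf3 added by name. This gave 45 members among the 56748 genes listed: 19 Wnt ligands, 10 Frizzled receptors, 2 coreceptors, 10 secreted inhibitors and 4 target or feedback genes. The rule uses gene symbols and no measured level.

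Wnt proteins are secreted lipid-modified ligands that bind Frizzled receptors on nearby cells. When the coreceptors Lrp5 or Lrp6 join the complex, beta-catenin is spared from degradation and switches on target genes with TCF and LEF factors. Sfrp proteins, Frzb and Wif1 bind the ligands outside the cell, and Dkk1, Dkk2 and Dkk4 bind the coreceptors, while Dkk3 is a family member that is not a typical coreceptor antagonist. Axin2 and Lgr5 are widely used readouts of the beta-catenin branch, and Rnf43 and Znrf3 are ubiquitin ligases that remove Frizzled from the cell surface. Wnt4 and Wnt9b act in forming kidney tubules, and several ligands are known to return in injured kidney and lung.

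All mice were male C57Bl/6 animals labelled WT. Kidneys came from animals of 10 to 12 weeks that received vehicle (WTK), folic acid with control IgG (IgGK) or folic acid with the leptin-neutralizing antibody LepAb (LepK). Folic acid, which injures kidney tubules, was injected once into the abdomen at 200 mg/kg, antibodies were given at 10 mg/kg every other day from day 1 for 21 days, and tissue was taken on day 28. Lungs came from 12-week-old animals given bleomycin, which injures the lung lining, at 1.5 units/kg into the airway, with IgG (IgGL) or LepAb (LepL) at 10 mg/kg from day 1, and were taken on day 14. LepAb is a human monoclonal antibody, each of the 5 groups held 3 libraries, and a vehicle lung group was not analysed here. Because every lung animal received bleomycin, the lung data compare antibodies within injury and say nothing of bleomycin itself. The study's text speaks of mice per group, but the labels do not tie each library to an animal, so p-values measure the spread between these libraries.

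The 15 libraries held 25913969 to 38924788 counts, so that 1 count was worth 0.0252 to 0.0415 normalized CPM, the count scaled to library size. Library sizes were corrected by TMM factors, which adjust for differences in RNA composition. For normalized CPM the factors were fitted within each organ, so kidney and lung values are not on 1 scale. The organ labels matched their markers: the surfactant genes Sftpc and Sftpa1 stood at 633 normalized CPM or more in every lung library and at no more than 0.0867 in every kidney library. Within IgGK, replicates 1 and 2 carried adrenal cortex transcripts. The summed level of 4 adrenal cortex markers was 500 and 635 normalized CPM in those libraries, 14.3 in IgGK replicate 3, 6 to 6.74 in WTK and 5.43 to 7.64 in LepK. Every IgGK result below was therefore also fitted without replicates 1 and 2, a choice made after seeing the data. In whole tissue, fewer cells of a type and less RNA per cell cannot be told apart.

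Promoter sequence is shown for 3 ligand and target genes on which the kidney results turn. Wnt4 and Axin2 changed in both kidney antibody and injury comparisons, and Wnt7a had no count in any vehicle kidney. Each line holds the 250 bases before the annotated start from RefSeq, build GRCm38.p6, with every GC box (GGGCGG on either strand) in capitals. The Wnt4 stretch is chr4:137277385-137277634 on the plus strand, the Axin2 stretch is chr11:108920099-108920348 on the plus strand and the Wnt7a stretch is chr6:91411354-91411603 on the minus strand.
Wnt4: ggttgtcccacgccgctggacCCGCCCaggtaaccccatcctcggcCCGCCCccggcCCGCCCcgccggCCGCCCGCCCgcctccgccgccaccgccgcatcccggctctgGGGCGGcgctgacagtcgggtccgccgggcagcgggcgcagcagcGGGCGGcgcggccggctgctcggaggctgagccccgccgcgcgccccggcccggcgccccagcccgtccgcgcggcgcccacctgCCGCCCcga
Axin2: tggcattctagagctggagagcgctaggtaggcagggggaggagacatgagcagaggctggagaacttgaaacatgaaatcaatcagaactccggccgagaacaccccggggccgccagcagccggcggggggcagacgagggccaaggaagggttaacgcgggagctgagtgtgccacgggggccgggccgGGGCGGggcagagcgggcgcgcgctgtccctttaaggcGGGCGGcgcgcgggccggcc
Wnt7a: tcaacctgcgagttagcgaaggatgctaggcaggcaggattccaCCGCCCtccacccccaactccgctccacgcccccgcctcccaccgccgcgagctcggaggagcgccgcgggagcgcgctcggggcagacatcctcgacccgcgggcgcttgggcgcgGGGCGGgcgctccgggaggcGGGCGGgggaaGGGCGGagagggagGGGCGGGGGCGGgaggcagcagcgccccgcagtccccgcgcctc
The letters are rich in G and C, at 85.2% for Wnt4, 69.2% for Axin2 and 77.6% for Wnt7a, and hold 8, 2 and 6 GC boxes. RefSeq windows of 300 bases, from 250 before to 50 after the start, were matched for 29 of the 45 members, in 33 windows. A GC box stood in 24 of these 33 windows (72.7%) and in 35.7% of all 32851 windows, and the median GC content was 66.3% and 52.7%. The TCF and LEF core, CTTTGAT or CTTTGAA on either strand, stood in 3 of the 33 windows (9.09%) and in 8.65% of all windows. Those 3 belonged to Dkk1, Wnt11 and Wnt5b, and the windows of Wnt4, Axin2 and Wnt7a did not hold these letters. Dkk3 and Sfrp1 had no entry.

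The family was led by secreted inhibitors and receptors rather than ligands. Levels between genes are given as normalized CPM per kilobase of gene length, as mean ± SD of 3 libraries. These levels used TMM factors fitted over all 15 libraries. Sfrp1 (chr8:23901518-23939648, plus strand, coordinates as deposited, for which the submitters' processing notes name GRCm39) had the highest level of all members in each group. It stood at 59.3 ± 4.11 in IgGL and 27.6 ± 4.91 in LepL, and among kidneys at 40.3 ± 0.452 in IgGK, 32 ± 2.75 in LepK and 27.3 ± 1.66 in WTK. In LepL the level of Dkk3, the next in order, was 23.3 ± 2.42, so that the LepL spreads of Sfrp1 and Dkk3 overlapped.

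**Figure D1:**
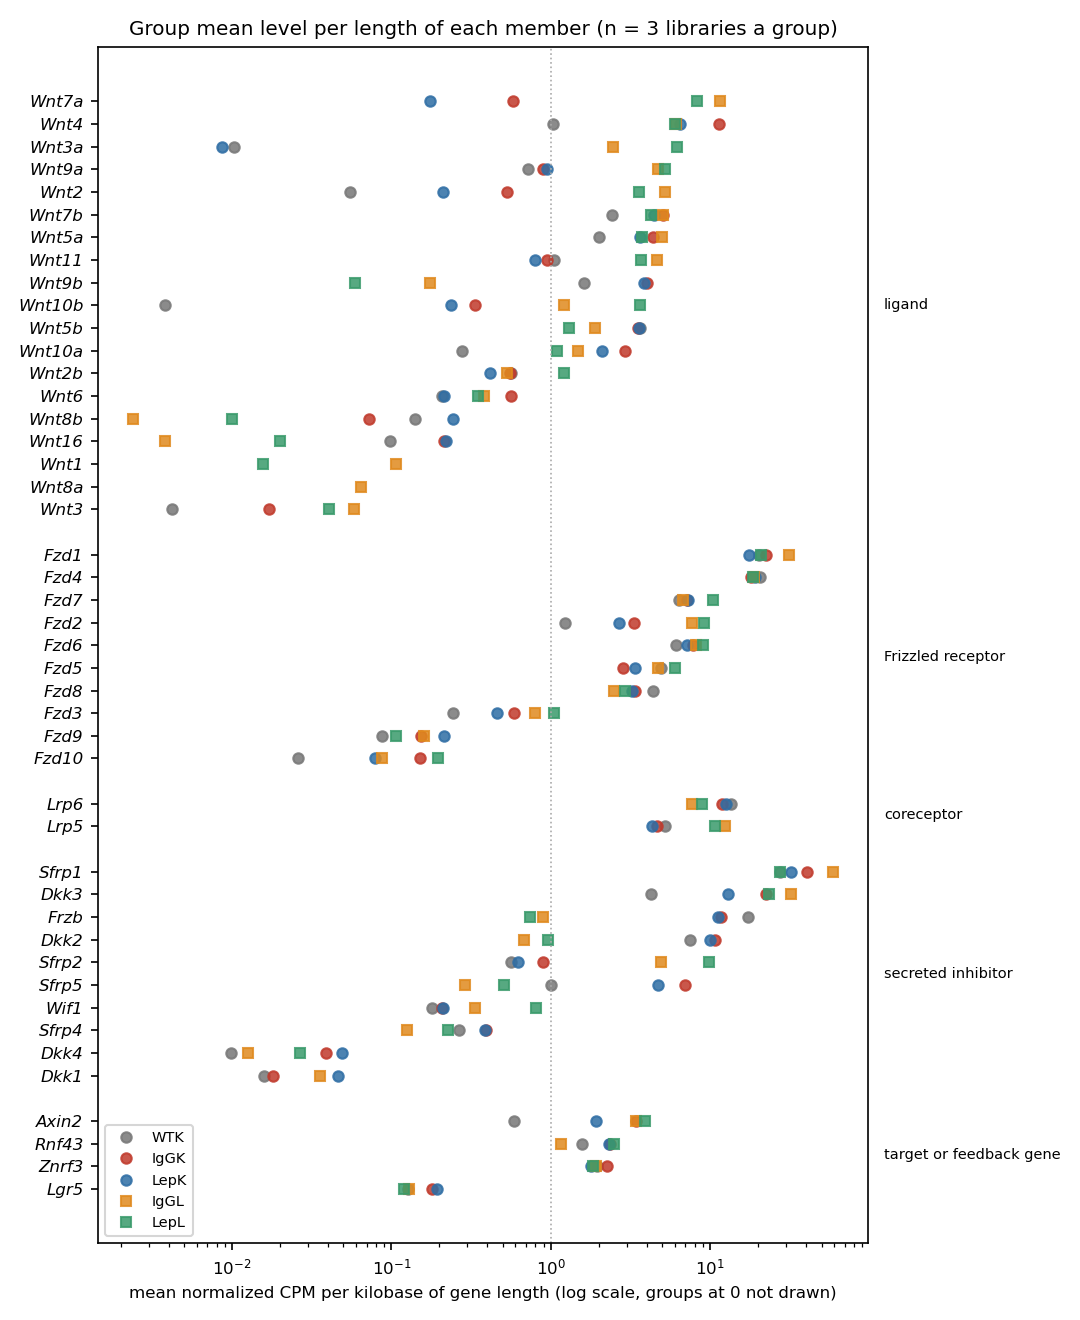
Mean level of each member in normalized CPM per kilobase of gene length on a log axis, by role, with circles for the 3 kidney groups, squares for the 2 lung groups and a dotted line at 1. Sfrp1, Fzd1, Fzd4 and Dkk3 lie furthest to the right, and Wnt1, Wnt3, Wnt8a, Dkk1 and Dkk4 stay below 1 in every group.

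Among receptors, Fzd1 and Fzd4 led in both organs. Fzd4 levels per length were 18.0 to 20.6 over the 5 group means, and Fzd1 levels were 17.5 to 31.2. Of the coreceptors, the level of Lrp6 exceeded that of Lrp5 in WTK (13.6 ± 0.855 and 5.2 ± 0.437), whereas in IgGL the level was 7.71 ± 0.775 for Lrp6 and 12.3 ± 1.19 for Lrp5. The leading ligand per length was Wnt5b in WTK (3.6 ± 0.778), Wnt4 in IgGK (11.4 ± 1.81) and LepK (6.44 ± 1.85), and Wnt7a in IgGL (11.6 ± 2.34) and LepL (8.29 ± 1.26). Wnt5b overlaps Fbxl14, and the libraries keep no strand, so its reads are uncertain. In LepL, Wnt7a (8.29) and Wnt3a (6.19 ± 0.613) were closer than in IgGL, where Wnt3a stood at 2.46 ± 2.1.

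The organs used different members, described here without a test because organ, injury and day differ together. Wnt3a, which drives beta-catenin signaling, was at 2.46 to 21 normalized CPM in the lung libraries and at no more than 0.079 in the kidney libraries. Wnt7a, Wnt2, Wnt9a and Wnt11 were also higher in every lung library than in any kidney library. Normalized CPM was scaled within each organ, so small differences between organs on it are uncertain. Wnt9b had 5.57 to 17.9 normalized CPM in kidney and 0.196 to 1.06 in lung. Frzb and Dkk2 were at 25.1 to 59.6 in kidney and at 1.18 to 5.51 in lung. Members with a mean of at least 1 per length numbered 26 in IgGL, 28 in LepL, 21 in WTK and 23 in both IgGK and LepK. Dkk1, Dkk4, Wnt1, Wnt3 and Wnt8a had 12 to 39 counts each over all 15 libraries and were tested in neither organ, Wnt3a was not tested in kidney, and Wnt8b and Wnt16 were not tested in lung. This left 39 members in kidney and 38 in lung that passed the filter on low counts.

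Folic acid injury with IgG raised many Wnt genes in kidney, led by Wnt4 among abundant ligands. Calls rest on edgeR's quasi-likelihood test with Benjamini-Hochberg adjustment over all genes tested, and a member was called when its absolute log2 fold change exceeded 0.5 and its adjusted p was under 0.05. Of 39 members tested, 17 were called higher and 2 lower in IgGK than in WTK, beside 37.3% of all 19593 genes called, 21.7% higher and 15.6% lower. The median log2 fold change was 0.56 over members and 0.04 over all genes tested. By role, 8 of 15 ligands, 3 of 10 Frizzled receptors, 4 of 8 secreted inhibitors and 2 of 4 target or feedback genes rose, and 1 Frizzled receptor and 1 inhibitor fell. With library-size scaling in place of TMM, the all-gene median was 0.48 and there were 26 members higher and 0 lower, so small kidney differences depend on the scaling.

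Wnt4 (chr4:137004800-137027037, plus strand in the deposited coordinates), a ligand of the tubule-forming program, had 4.07, 3.04 and 4.94 normalized CPM in WTK. In IgGK it had 42.6, 52.6 and 39.0. The groups did not overlap, and the log2 fold change was 3.47 (SE 0.23, adjusted p = 1.66e-07). Without the 2 libraries with adrenal transcripts it was 3.27 (adjusted p = 9.08e-06), the remaining IgGK library being assumed to vary like the others.

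Wnt10a, another ligand of the beta-catenin branch, had 0.955, 0.316 and 0.649 normalized CPM in WTK and 5.14, 6.94 and 8.01 in IgGK, a log2 fold change of 3.39 (SE 0.34, adjusted p = 3.86e-06). Every IgGK library was above every WTK library. Wnt9b rose by 1.33 on the log2 scale (SE 0.15, adjusted p = 8.50e-06), Wnt5a, a ligand best known outside the beta-catenin branch, by 1.13 (SE 0.10, adjusted p = 1.34e-06) and Wnt7b by 1.05 (SE 0.16, adjusted p = 9.38e-05). Wnt7b overlaps AU022754, so its reads are uncertain in the same way as those of Wnt5b.

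A further 3 ligands were nearly or wholly absent from vehicle kidney, and their values are shown although their mean was under 1 normalized CPM, a choice made after seeing them. Wnt7a had no count in WTK and 1.45, 2.14 and 1.56 normalized CPM in IgGK. With 173 counts against none it was at least 44.5-fold higher, taking 3 counts over the WTK group as the floor, with an adjusted p of 0.000674. Wnt10b had 0, 0 and 0.0361 in WTK and 0.627, 1.80 and 0.752 in IgGK (adjusted p = 0.000342). Wnt2 had 0, 0.276 and 0.0721 in WTK and 1.09, 1.11 and 1.16 in IgGK (adjusted p = 0.00310). All 3 were therefore detected in every injured IgGK kidney, at low levels. The ligands Wnt2b, Wnt5b, Wnt9a, Wnt11, Wnt8b, Wnt16 and Wnt6 were not called, with log2 fold changes between -0.92 and 1.40, and for Wnt6 (1.40) the unadjusted p was 0.0391 and the adjusted p 0.0698.

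Among receptors, Fzd2 had 4.15, 3.95 and 4.47 normalized CPM in WTK and 10.8, 10.7 and 12.4 in IgGK. The groups stood apart, with a log2 fold change of 1.43 (SE 0.15, adjusted p = 4.93e-06). Fzd3, a receptor also known from planar polarity, rose by 1.28 (SE 0.23, adjusted p = 0.000440). Fzd10 reached 0.723 normalized CPM at most, with a log2 fold change of 2.48 (adjusted p = 0.0467) that was not called without any 1 of 5 libraries, namely WTK replicates 1 and 3 and the 3 IgGK replicates (adjusted p 0.0648 to 0.178).

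Fzd5 was the 1 receptor that fell, by 0.79 on the log2 scale (SE 0.10, adjusted p = 2.92e-05), and by 0.35 with library-size scaling, under the fold threshold. The remaining receptors stayed within the threshold: Fzd6 0.35, Fzd7 0.18, Fzd1 0.14, Fzd4 -0.20 and Fzd8 -0.37, and for the coreceptors Lrp6 -0.20 and Lrp5 -0.18. With library-size scaling, Fzd4, Fzd8, Lrp5 and Lrp6 took the opposite sign, at 0.24, 0.0674, 0.26 and 0.24, and Fzd6 (0.80) and Fzd7 (0.62) were called higher. With TMM the adjusted p values of these 7 genes were between 0.00990 and 0.0676, except for Fzd1 (0.206). Fzd9, at 0.75 normalized CPM or less in every library, had a log2 fold change of 0.80 and was not called.

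Of 8 secreted inhibitors tested, 4 rose, 1 fell and 3 were not called. Dkk3 (chr7:111715224-111758264, minus strand) had 13.0, 14.3 and 12.9 normalized CPM in WTK and 67.6, 73.8 and 69.4 in IgGK. The IgGK libraries lay close together and far above WTK, with a log2 fold change of 2.39 (SE 0.15, adjusted p = 1.37e-07). Sfrp5, a Wnt-binding inhibitor, had 1.41, 1.70 and 2.20 in WTK and 8.54, 12.6 and 15.8 in IgGK, a log2 fold change of 2.79 (SE 0.27, adjusted p = 2.86e-06).

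Sfrp1 started from a high level. It had 105, 118 and 112 normalized CPM in WTK and 167, 163 and 163 in IgGK. No WTK library reached the IgGK range, and the log2 fold change was 0.56 (SE 0.07, adjusted p = 3.57e-05). Dkk2 was near the threshold at 0.52 (SE 0.09, adjusted p = 0.000510), and was under it at 0.49 without WTK replicate 3 and at 0.45 without IgGK replicate 1. Frzb fell by 0.57 (SE 0.10, adjusted p = 0.000509), by 0.47 without WTK replicate 1 and by 0.13 with library-size scaling. In the fit of all 15 libraries, Frzb (adjusted p = 0.178), Dkk2 (adjusted p = 0.0595) and the ubiquitin ligase Rnf43 (adjusted p = 0.0583) were not called. Sfrp2 (0.67), Sfrp4 (0.56) and Wif1 (0.22) overlapped between groups and were not called.

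Axin2 (chr11:108811175-108841609, plus strand), the scaffold protein that beta-catenin itself induces, had 2.33, 2.80 and 3.89 normalized CPM in WTK. In IgGK it had 16.3, 18.9 and 17.4. The groups did not overlap, and the log2 fold change was 2.54 (SE 0.20, adjusted p = 6.41e-07), or 2.53 without the 2 libraries with adrenal transcripts. Rnf43 rose by 0.58 (SE 0.12, adjusted p = 0.00133). Znrf3 (0.21) and Lgr5 (0.51), which had no more than 2.48 normalized CPM in any library, were not called. Without IgGK replicates 1 and 2, 15 members were higher and 2 lower. Dkk2 (0.42, adjusted p = 0.0277) and Fzd10 (3.14, adjusted p = 0.110) were the called members lost.

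**Figure D2:**
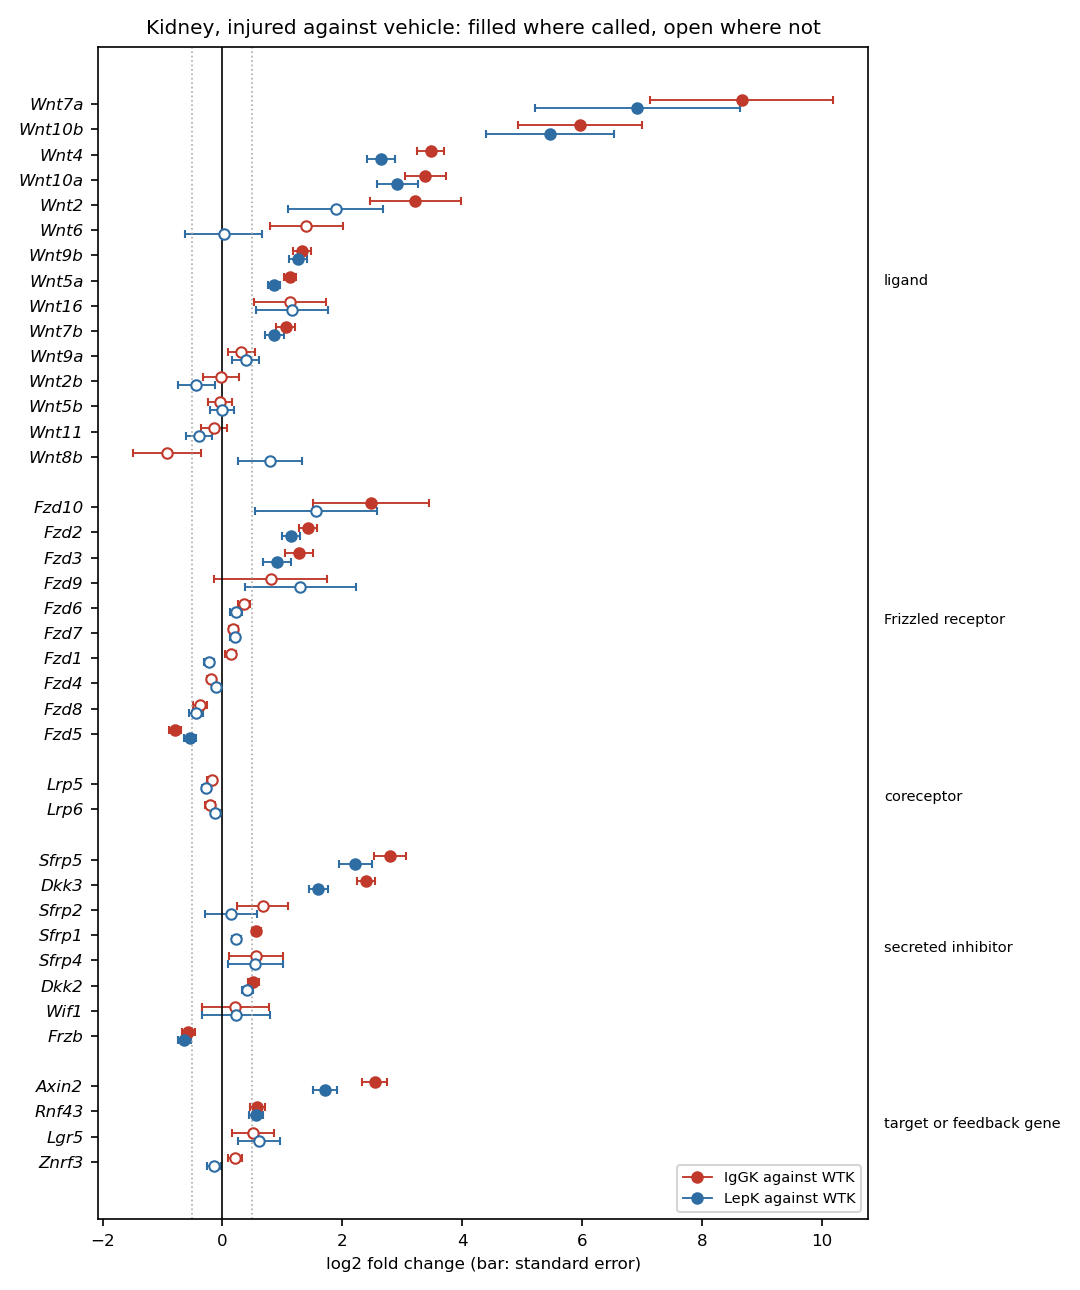
Log2 fold changes of the 39 members tested in kidney, by role, for IgGK (red) and LepK (blue) against the same 3 WTK libraries, with bars for standard errors, filled points for called members and dotted lines at -0.5 and 0.5. Wnt4, Wnt10a, Sfrp5, Axin2 and Dkk3 lie furthest right among abundant members, Fzd5 and Frzb are the called members left of 0, and the positions of Wnt7a and Wnt10b, with 0 and 1 counts in WTK, depend on the fit and are no bound.

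LepAb lowered 3 of these genes in injured kidney. Of 39 members, 1 was called higher and 3 lower in LepK than in IgGK, beside 10.4% of all genes called, 4.38% higher and 5.99% lower. The share of members called was thus near that of all genes. The median log2 fold change was -0.19 over members and -0.01 over all genes tested. The injury and antibody comparisons share the IgGK libraries, so each is given with its own values.

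Wnt4 had 17.2, 31.4 and 27.0 normalized CPM in LepK, against 42.6, 52.6 and 39.0 in IgGK. All LepK values were below all IgGK values, and Wnt4 fell by 0.83 on the log2 scale (SE 0.20, adjusted p = 0.0107). Axin2 had 7.54, 11.5 and 10.6 in LepK, against 16.3, 18.9 and 17.4. It also fell by 0.83 with no overlap (SE 0.19, adjusted p = 0.00826). Dkk3 had 29.1, 48.7 and 44.0 in LepK, against 67.6, 73.8 and 69.4. It fell by 0.79, again with no overlap (SE 0.14, adjusted p = 0.00244).

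Each of these calls held without any 1 of the 6 libraries, with adjusted p values up to 0.0479 for Wnt4, 0.0357 for Axin2 and 0.00947 for Dkk3. IgGK replicate 3, which held few adrenal transcripts, was above every LepK library for all 3 genes. Against that library alone the log2 fold changes were -0.62 for Wnt4, -0.81 for Axin2 and -0.76 for Dkk3, and none was called (adjusted p = 0.251, 0.147 and 0.0637).

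Sfrp1 had 118, 140 and 134 normalized CPM in LepK, against 167, 163 and 163 in IgGK. The groups stood apart, and the log2 fold change of -0.33 (SE 0.07, adjusted p = 0.00752) was within the fold threshold. Fzd1 was similar at -0.36 (adjusted p = 0.0119), with 69.4, 67.2 and 68.7 in LepK and 87.0, 90.7 and 85.2 in IgGK. Both passed the threshold with library-size scaling, at -0.51 and -0.54, where the median of all genes was -0.19. Without IgGK replicates 1 and 2, which leaves 1 IgGK library, Sfrp1 was at -0.31 and Fzd1 at -0.31.

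The 1 member called higher was Wnt8b, a rare ligand with 0.132, 0.343 and 0.231 normalized CPM in IgGK and 1.12, 0.536 and 0.701 in LepK. Its log2 fold change was 1.71 (SE 0.55, adjusted p = 0.0454). The call was lost without any 1 of 5 libraries, the 3 IgGK replicates and LepK replicates 1 and 3, with adjusted p values up to 0.204. A further 6 members had an unadjusted p under 0.05 and were not called: Wnt7a (-1.74), Wnt6 (-1.38), Sfrp5 (-0.58), Znrf3 (-0.34), Wnt5a (-0.27) and Fzd5 (0.25). Wnt7a was uneven in LepK, with 0.0658, 0.235 and 1.26 normalized CPM, and without LepK replicate 3 its log2 fold change was -3.48 (adjusted p = 0.0105).

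Against vehicle kidney, LepK still held 13 members higher and 2 lower, beside 22.5% of all genes called, 15.2% higher and 7.3% lower, with a member median of 0.55 and 0.03 over all genes. The largest differences among members with at least 1 normalized CPM were in Wnt10a, Wnt4, Sfrp5, Axin2, Dkk3 and Wnt9b. Wnt10a had 3.82, 5.77 and 4.95 in LepK against less than 1 in each WTK library, a log2 fold change of 2.92 (SE 0.34, adjusted p = 4.90e-05). Wnt4 was higher than in WTK by 2.64 (SE 0.23, adjusted p = 6.73e-06), Axin2 by 1.71 (SE 0.20, adjusted p = 5.51e-05) and Dkk3 by 1.60 (SE 0.15, adjusted p = 1.31e-05). For each of these 4 genes every LepK library was above every WTK library.

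Sfrp5 had 6.09, 9.08 and 9.71 normalized CPM in LepK, a log2 fold change of 2.22 against WTK (SE 0.27, adjusted p = 6.64e-05). Wnt9b had 8.52, 5.57 and 6.24 in WTK, 15.7, 17.9 and 17.3 in IgGK and 16.9, 17.0 and 14.9 in LepK. The IgGK and LepK values overlapped and both lay above WTK, with a log2 fold change of 1.27 for LepK against WTK (SE 0.15, adjusted p = 4.79e-05) and of -0.06 for LepK against IgGK (SE 0.14, adjusted p = 0.808). Wnt7a had 2, 7 and 34 counts in LepK against none in WTK (adjusted p = 0.00888, or 0.0201 without LepK replicate 3, which held most of the counts).

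The other members called higher were Wnt10b (from 1 count in the WTK group), Fzd2 (1.14), Fzd3 (0.92), Wnt5a (0.86), Wnt7b (0.86) and Rnf43 (0.56), and those called lower were Frzb (-0.64) and Fzd5 (-0.54), with adjusted p values between 4.89e-05 and 0.00759. Rnf43 was under the threshold without LepK replicate 2 (0.45) and Fzd5 without WTK replicate 1 (-0.44). With library-size scaling, Frzb (-0.38) and Fzd5 (-0.28) were within the threshold. Sfrp1 was 0.23 higher than in WTK (SE 0.07, adjusted p = 0.0285), within the fold threshold and with overlapping groups. Of the other members not called, Dkk2 (0.41), Fzd7 (0.21), Wnt2 (1.89), Fzd6 (0.22), Fzd8 (-0.44), Lrp5 (-0.27) and Fzd1 (-0.22) had an unadjusted p under 0.05, and Fzd1 took the opposite sign with library-size scaling (0.0407).

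In bleomycin-injured lung, LepAb lowered the abundant inhibitor Sfrp1 and raised the ligand Wnt2b. Of 38 members tested, 1 was called higher and 1 lower in LepL than in IgGL, beside 4.14% of all 19617 genes called, 1.78% higher and 2.36% lower. Here too the share of members called was near that of all genes. The member median was 0.06 and that of all genes 0.00. Sfrp1 had 265, 300 and 301 normalized CPM in IgGL and 157, 134 and 109 in LepL. The groups were far apart, and Sfrp1 fell by 1.11 on the log2 scale (SE 0.14, adjusted p = 0.0327). Wnt2b (chr3:104852588-104869237, minus strand), a ligand of the beta-catenin branch, had 2.55, 2.22 and 2.73 in IgGL and 6.17, 4.76 and 5.84 in LepL. It rose without overlap by 1.16 (SE 0.23, adjusted p = 0.0386).

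Both lung calls were lost in most fits that left out 1 library. In these fits the size of the Sfrp1 difference stayed between -1.25 and -0.98, while the adjusted p was 0.158 without IgGL replicate 2, 0.0528 without IgGL replicate 3, 0.107 without LepL replicate 2 and 0.175 without LepL replicate 3. For Wnt2b it stayed between 1.08 and 1.27, and it was called only in the fit without IgGL replicate 1 (adjusted p = 0.0158). IgGL replicate 1 was the highest IgGL library in Wnt3a, Wnt10b, Rnf43 and Sfrp2. Without it 7 members were called higher and 3 lower, and without IgGL replicates 2 or 3 or LepL replicates 2 or 3 none was called. Without LepL replicate 1, Sfrp1 was the 1 member called.

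**Figure D3:**
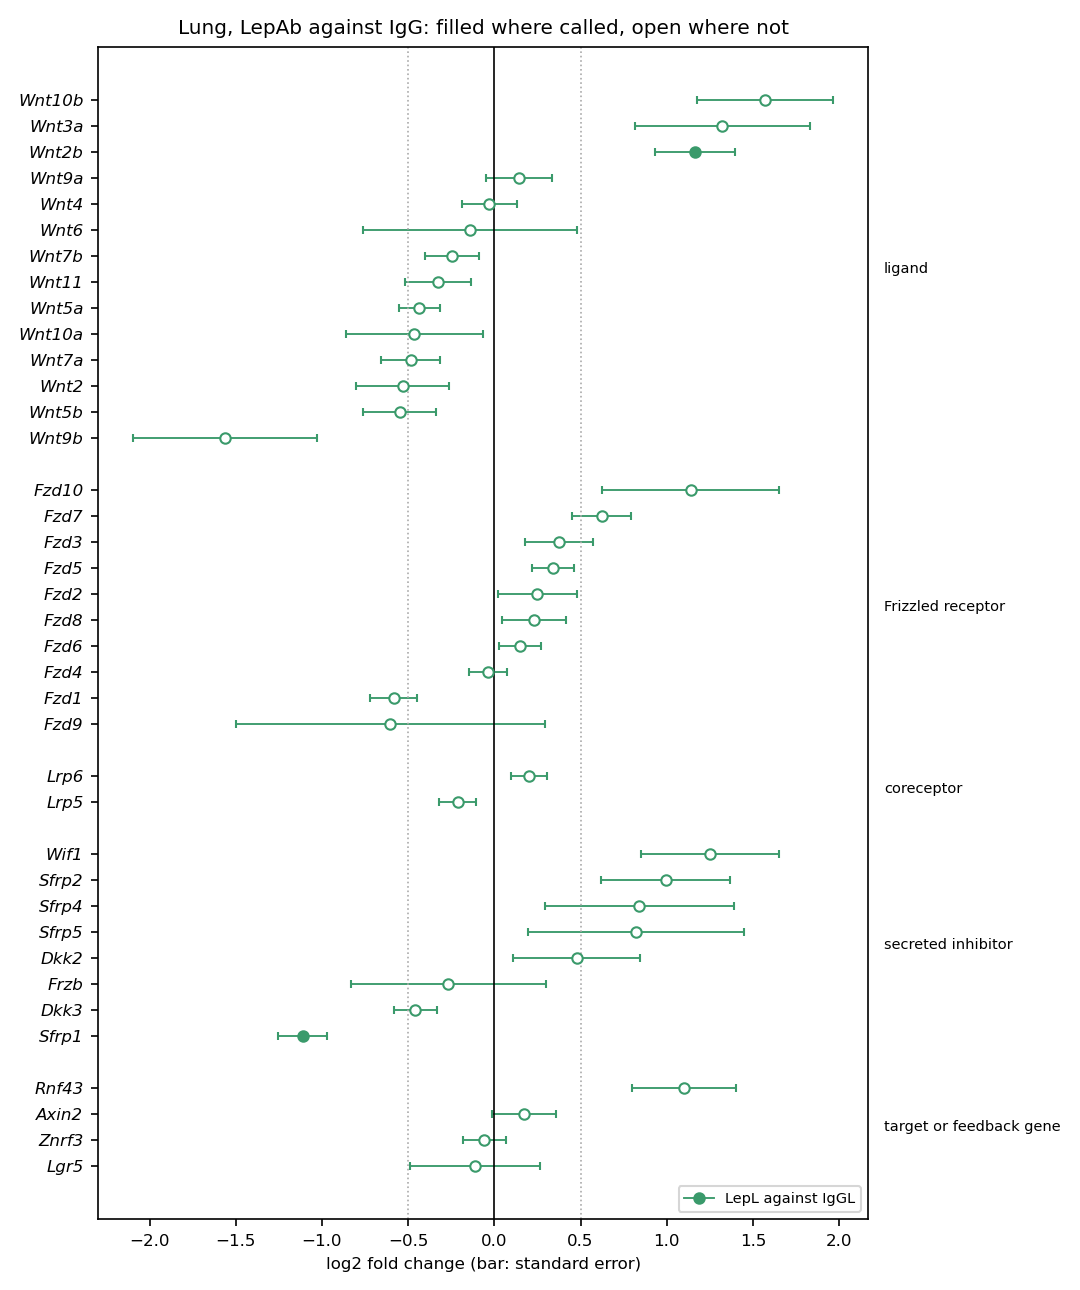
Log2 fold changes of the 38 members tested in lung for LepL against IgGL, by role, with bars for standard errors, filled points for the 2 called members and dotted lines at -0.5 and 0.5. Wnt2b is the filled point right of 0 and Sfrp1 the filled point left of 0, while Wnt10b, Wnt3a, Wif1 and Rnf43 are among the open points above 1.

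A further 13 members had an unadjusted p under 0.05 in lung and were not called, so that 15 of 38 members were under this level, beside 27.3% of all genes. Of these, Wnt10b, Rnf43, Fzd7 and Fzd1 were called without the filter on low counts, with DESeq2 (adjusted p = 0.000760, 0.00406, 0.0125 and 0.00501) and with all 15 libraries in 1 fit. Ligands of either sign were among them: Wnt10b 1.57, Wnt3a 1.32, Wnt5a -0.43, Wnt7a -0.49, Wnt5b -0.55 and Wnt9b -1.56. Wnt3a had 14.8, 5.36 and 2.46 normalized CPM in IgGL and 17.9, 17.8 and 21 in LepL. Wnt10b had 7.26, 4.44 and 2.06 in IgGL and 10.4, 16.2 and 14.5 in LepL. In both, IgGL replicate 1 was nearest to LepL, and without it the log2 fold changes were 2.26 for Wnt3a (adjusted p = 0.00219) and 2.06 for Wnt10b (adjusted p = 0.00468).

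Rnf43 showed the same arrangement, and Sfrp2 showed it in part. Rnf43 had 13, 7.28 and 5.06 normalized CPM in IgGL and 17.6, 18.8 and 18.2 in LepL, and its log2 fold change was 1.10 (SE 0.30, adjusted p = 0.0664), or 1.56 without IgGL replicate 1 (adjusted p = 0.00183). Sfrp2 had 16.4, 14.1 and 4.56 in IgGL and 24.7, 22.9 and 22.6 in LepL, and its log2 fold change was 0.99 (adjusted p = 0.133). For Sfrp2, IgGL replicates 1 and 2 lay close together and replicate 3 stood apart. Its log2 fold change ranged from 0.61 to 1.31 over the fits without 1 library. The remaining members of this kind were Wif1 (1.25), Fzd7 (0.62), Fzd5 (0.34), Dkk3 (-0.46) and Fzd1 (-0.58). Dkk3 had 117, 136 and 104 in IgGL and 76.7, 93.6 and 89.9 in LepL, which did not overlap (adjusted p = 0.0675). Wnt4 (-0.03, SE 0.16) and Axin2 (0.17, SE 0.19) overlapped between the lung groups.

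Alveolar type 2 markers moved with these lung members. The summed level of 4 such markers was 11563, 7703 and 6238 normalized CPM in IgGL and 16807, 20040 and 23083 in LepL, and 3 of the 4 were called higher. IgGL replicate 1, highest of its group in Wnt3a, Wnt10b, Rnf43 and Sfrp2, was also highest in these markers. Alveolar type 1 markers were arranged alike, with sums of 2803, 2518 and 2133 in IgGL and 3146, 3502 and 3352 in LepL. Of these 4 markers 0 were called. Fibroblast markers (Pdgfra, Pdgfrb, Dcn, Lum, Col1a1, Col1a2, Postn) summed to 5251 to 5972 in IgGL and 2276 to 3114 in LepL, beside the fall of Sfrp1. Of the 7, 4 were called lower. Col1a1 and Col1a2 were the largest terms, with means of 2244 and 2113 in IgGL and 971 and 1041 in LepL. The mean of Dcn did not fall (176 in IgGL and 196 in LepL), and that of Lum was 18.8 and 17.2. Airway markers summed to 7196 to 8894 in IgGL and 11654 to 22611 in LepL, with 1 of the 4 called higher. Scgb1a1 was the largest term of this sum, with means of 7902 in IgGL and 16600 in LepL. The part of these cell types in the member differences was not tested.

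In kidney, marker sums of some cell types moved with most called members, and those of proximal tubule moved the opposite way. Fibroblast markers summed to 161 to 210 normalized CPM in WTK, 993 to 1136 in IgGK and 401 to 641 in LepK, with 7 of 7 called higher by injury and 6 of 7 lower with LepAb. Markers of injured tubule (Havcr1, Lcn2, Vcam1, Krt20) summed to 10.5 to 16.7, 523 to 568 and 224 to 316. Proximal tubule markers summed to 18149 to 19372, 4542 to 6113 and 8370 to 11096, and macrophage markers to 147 to 164, 624 to 795 and 306 to 400. Adipocyte markers summed to 17.9 to 72.6, 228 to 387 and 69.2 to 202, a sum in which Cfd was the largest term in IgGK and LepK, and 3 of the 4 rose with injury while Lep fell (-1.82). Not every list followed the members. Collecting duct markers summed to 877 to 1068, 838 to 987 and 1076 to 1371, and podocyte markers to 214 to 224, 219 to 267 and 239 to 299. Endothelial markers summed to 166 to 192, 129 to 144 and 148 to 161. The part of these cells in the kidney differences was not tested.

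The LepAb effect differed between organs for 4 members. The difference of effects, kidney minus lung, was tested in 1 fit of the 12 injured libraries at an adjusted p under 0.05, where 7.12% of all 21488 genes were called, 3.51% higher and 3.62% lower. Of 40 members tested, Sfrp1 and Wnt9b were called higher and Axin2 and Wnt2b lower. The share of members called was not far from that of all genes. Since organ, injury, day and duration of antibody differ together, they cannot be told apart as sources of the difference.

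Sfrp1 differed by 0.81 (SE 0.17, adjusted p = 0.0192), from effects of -0.33 in kidney and -1.11 in lung, so both were lower with LepAb and the lung difference was larger. Axin2 differed by -0.97 (SE 0.26, adjusted p = 0.0427), from -0.83 in kidney and 0.17 in lung. Wnt2b differed by -1.55 (SE 0.40, adjusted p = 0.0383). In kidney it had 1.48, 2.40 and 2.63 normalized CPM in IgGK and 2.04, 1.61 and 1.22 in LepK (-0.42, adjusted p = 0.375), and in lung it was called higher. Wnt9b differed by 1.52 (SE 0.38, adjusted p = 0.0327), from -0.06 in kidney and -1.56 in lung, where it had only 0.554, 1.03 and 1.06 normalized CPM in IgGL and 0.196, 0.438 and 0.252 in LepL. For Wnt4, with -0.83 in kidney and -0.03 in lung, the difference of -0.77 (SE 0.28) did not pass (adjusted p = 0.106). Other members with an unadjusted p under 0.05 were Wnt10b (-2.04), Fzd10 (-2.03), Sfrp2 (-1.50), Rnf43 (-1.09), Fzd3 (-0.71) and Fzd7 (-0.57).

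Sfrp1 kept this call in 10 of the 12 fits without a single library. It missed at an adjusted p of 0.0525 without IgGK replicate 2 and 0.0516 without IgGL replicate 2, and with library-size scaling it was 0.56 (adjusted p = 0.0603). The call was kept in 4 of 12 such fits for Axin2, 3 of 12 for Wnt2b and 2 of 12 for Wnt9b. Without IgGK replicates 1 and 2 none of the 4 was called, with sizes of 0.81 for Sfrp1, -0.97 for Axin2, -1.83 for Wnt2b and 1.49 for Wnt9b.

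**Figure D4:**
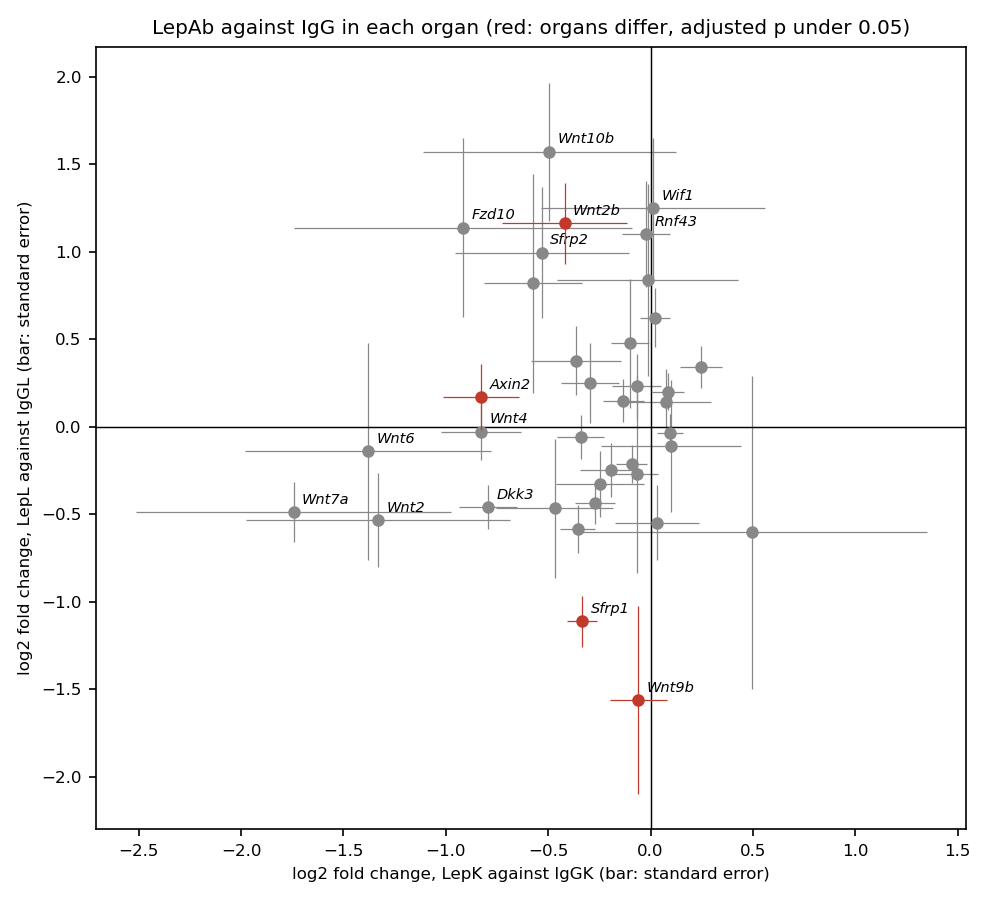
Log2 fold change of LepAb against IgG in kidney (horizontal) and lung (vertical) for members tested in both organs, with bars for standard errors. The 4 members in red are those whose effects differed between organs, and Wnt4 and Dkk3 lie left of 0 at -0.83 and -0.79.

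**Figure D5:**
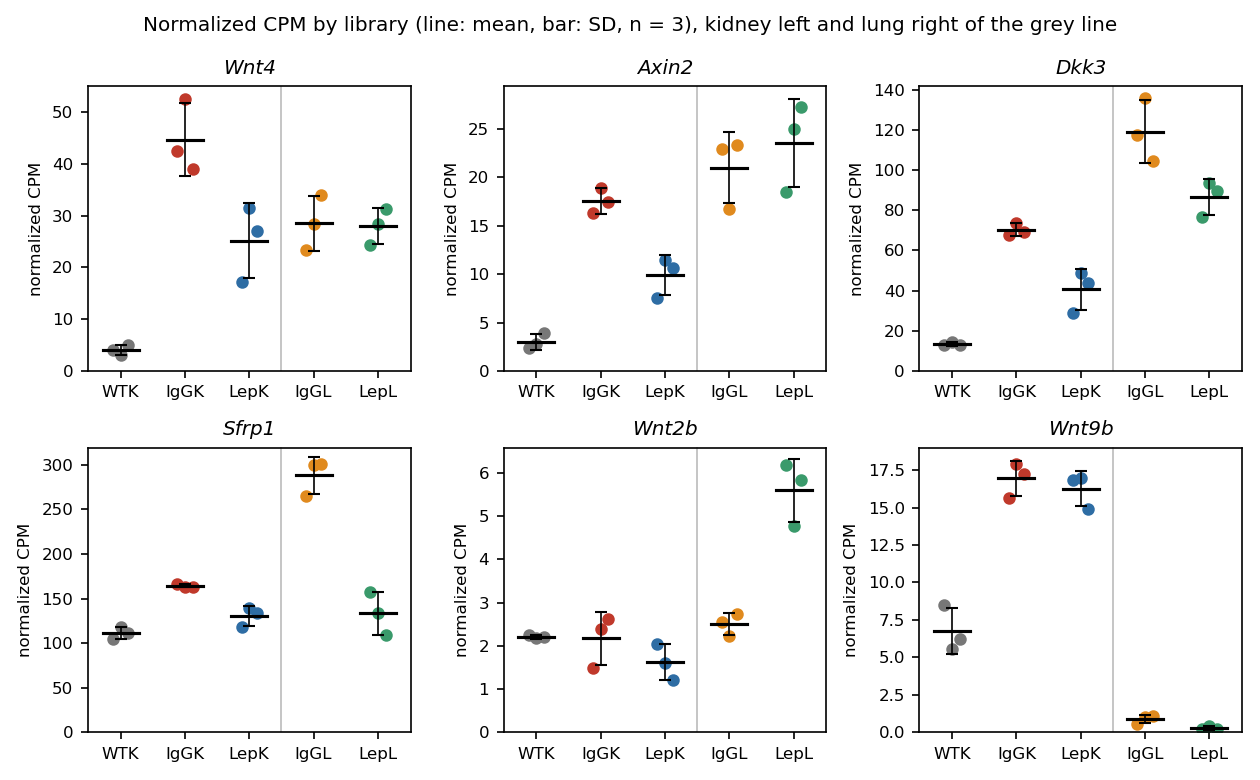
Normalized CPM of 6 members in every library, with the mean as a line and the SD as a bar (n = 3). Values were scaled within each organ, so kidney and lung are not on 1 scale. Wnt4, Axin2 and Dkk3 are low in WTK, highest among kidneys in IgGK and between them in LepK, while Sfrp1 falls and Wnt2b rises with LepAb in lung.

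Other genes of the pathway were read from lists of 89 genes. In IgGK against WTK, 28 of 83 tested were called higher and 8 lower, beside 21.7% and 15.6% of all genes. In LepK against IgGK 3 were called higher and 10 lower, beside 4.38% and 5.99%, and in LepK against WTK 23 higher and 4 lower, beside 15.2% and 7.3%. In LepL against IgGL 2 of 86 were called higher and 6 lower, beside 1.78% and 2.36%. The difference between organs was called for 5 genes in each direction among 87, beside 3.51% and 3.62%. The median log2 fold changes were 0.22, -0.08, 0.11, -0.07 and -0.05 in that order.

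Of the genes known to be induced by beta-catenin, 13 of 18 rose with injury and 4 fell, with a median of 1.63. Mmp7, a matrix protease of injured tubule, had 0, 0.079 and 0.0361 normalized CPM in WTK, 15, 22 and 18.6 in IgGK and 3.49, 5.67 and 7.05 in LepK. It rose with injury (adjusted p = 4.03e-08), from 3 counts over the WTK group, and fell by 1.78 with LepAb (SE 0.25, adjusted p = 0.000648). Cd44, an adhesion receptor, rose by 4.44 and Nkd2, a feedback inhibitor, by 3.26.

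With LepAb 8 of the 18 fell and 3 rose, with a median of -0.69. Beside Mmp7, Nkd1 fell by 1.09 (adjusted p = 0.00294), Nkd2 by 1.01 (adjusted p = 0.00438) and Tcf7, a beta-catenin partner, by 0.95 (adjusted p = 0.00415). Not all targets moved this way. Notum, an enzyme that inactivates Wnt ligands, had 34.1, 30.2 and 27.7 normalized CPM in WTK, 16, 13.3 and 16.2 in IgGK and 29.4, 22.2 and 22.7 in LepK. It fell by 1.01 with injury (adjusted p = 2.37e-05) and rose by 0.71 with LepAb (adjusted p = 0.00250), opposite to Axin2. Sp5 and Ccnd1 fell with injury by 1.03 and 1.95 and rose with LepAb by 0.55 and 0.53. Against IgGK replicate 3 alone, Mmp7 was the 1 pathway gene still called lower, and Nkd1 (-1.08, adjusted p = 0.0714), Nkd2 (-0.89, adjusted p = 0.145), Tcf7 (-0.94, adjusted p = 0.0825) and Notum (0.62, adjusted p = 0.0846) were not called.

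Of 13 TCF, LEF and cofactor genes 5 rose with injury, among them Tcf7 (2.30), Pygo1 (1.66) and Lef1 (1.54), and 1 (Tcf7) fell with LepAb. Of 7 other receptors Ror2 (1.51) and Ptk7 (1.44), receptors of the branch without beta-catenin, rose and Lrp4 (-0.69) fell. Of all genes, 21.7% were called higher and 15.6% lower with injury. Of 14 planar polarity genes Vangl2 (1.06), Prickle1 (0.94) and Prickle2 (0.80) rose, a share near the 21.7% of all genes. Among 14 other modulators 6 rose and 3 fell with injury, with Gpc3 at 2.13, Apcdd1 at 1.57 and Trabd2b, a protease that cuts Wnt proteins, at -1.19. With LepAb, Gpc3 (-0.73) and Cthrc1 (-2.19) were the modulators called lower. Cthrc1 was rare, with a mean under 1 normalized CPM over the IgGK and LepK libraries. In the 19 genes of the destruction complex and signal transduction, Csnk1e (1.11) and Apc2 (0.82) rose and Ctnnbip1 (-0.65) fell. Both shares were below the 21.7% and 15.6% of all genes. With library-size scaling, Lrp4 (-0.25) and Ctnnbip1 (-0.21) were within the fold threshold in this injury comparison. Without IgGK replicates 1 and 2, which leaves 1 IgGK library, Lef1 was at 1.58 and Prickle2 at 0.69. Porcn and Wls, needed for Wnt secretion, were called in none of the within-organ comparisons.

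Against WTK, LepK kept differences in the same lists. Of the beta-catenin-induced genes 11 of 18 were called higher and 2 lower, with Cd44 at 3.64 and Nkd2 at 2.25. Lef1 (1.60), Tcf7 (1.35), Pygo1 (1.17), Gpc3 (1.40), Ror2 (1.18), Apcdd1 (1.09), Ptk7 (0.95), Csnk1e (0.83), Vangl2 (0.72), Prickle2 (0.59) and Prickle1 (0.57) were called higher and Trabd2b (-0.77) lower. Without 1 library, the call was kept in 2 of 6 fits for Prickle2 and in 3 of 6 for Prickle1 and Pygo1, with adjusted p values up to 0.173, 0.102 and 0.0893, and the other genes named here kept it in all 6.

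In lung, 4 of 19 beta-catenin-induced genes fell with LepAb and none of the 19 rose, beside 2.36% and 1.78% of all genes. Ccn4, a matricellular protein, had 44.9, 84.1 and 124 normalized CPM in IgGL and 29.9, 28 and 19.4 in LepL, and its log2 fold change was -1.71 (adjusted p = 0.0363). Myc fell by 1.12 (adjusted p = 0.0337) and Snai1 by 1.0 (adjusted p = 0.0381). The receptors Ror2 (-1.24) and Ptk7 (-0.75) fell as well, and Rspo1, a secreted booster of Wnt signaling, rose by 1.10 and Pygo1 by 0.84. Without 1 library, 0 to 7 pathway genes were called higher and 0 to 15 lower in lung. The fit without IgGL replicate 1 gave 7 and 15, beside 1937 and 1602 of all genes. The fits without any 1 of the other 5 libraries gave 0 and 0, beside at most 18 and 4 of all genes.

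The difference between organs was called for Notum (1.68), Myc (1.15), Gpc4 (0.88), Trabd2b (0.76) and Porcn (0.66), which were higher in kidney minus lung. It was called in the other direction for Pygo1 (-1.31), Gpc3 (-1.24), Snai2 (-1.11), Nkd1 (-1.08) and Prickle1 (-0.83). The adjusted p values were between 0.0125 and 0.0472. Over the 12 fits without 1 library, Notum kept the call in 12, Gpc3 and Gpc4 in 5, Myc, Porcn and Prickle1 in 3, Pygo1 in 2 and Snai2 in 1, and with IgGK replicates 1 and 2 left out together no pathway gene was called. Nkd1 had 147, 126 and 126 normalized CPM in IgGL and 119, 148 and 138 in LepL, overlapping, while in kidney all LepK values (6.06 to 11.9) were below those of IgGK (17.9 to 21.1).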

How the data were processed

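RNA-seq of poly(A) RNA, from non-directional libraries, gave 15 libraries in 5 groups. The authors deposited raw counts per gene and FPKM (fragments scaled to gene length and library size). The submitters' processing notes name the GRCm39 build and DESeq2, and the aligner and counting program are not given in the sources used here. Deposited columns of fold changes, p-values and group means of the authors' own comparisons were not used. FPKM served only as an alternative for levels.

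Counts were tested with edgeR 4.0.16 (R 4.3.3), with TMM scaling, filterByExpr (minimum count 10, total 15) and the quasi-likelihood test, over 9 kidney, 6 lung or 12 injured libraries. Benjamini-Hochberg adjustment ran over all genes. The scripts were tested on simulated data. Total counts were 25913969 to 38924788. Alternatives were DESeq2 1.42.0, other scaling and filters, all 15 libraries in 1 fit, 2 groups only, a replicate block and leaving out libraries. Libraries of a group differed beyond sampling noise (chi-square per gene at least 7.15).

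Members and lists were chosen with earlier results of these data known. Named genes: all called members and Sfrp1, members with unadjusted p under 0.05 as values, library values for the 6 largest called members at 1 CPM or more, and the 3 largest called genes of each pathway list. Sequences are from RefSeq, GRCm38.p6. 1 called pathway gene is not reported here by name.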

Additional observations from a re-analysis of the deposited data

Results flagged for a closer look

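By the test of the difference itself (edgeR's quasi-likelihood test, 12 libraries), the LepAb effect differed between organs for 4 of 40 members. That share was not far from the 7.12% called among all 21488 genes. As log2 differences, kidney minus lung, the 4 members had 0.81 for Sfrp1 (adjusted p = 0.0192), 1.52 for Wnt9b (adjusted p = 0.0327), -1.55 for Wnt2b (adjusted p = 0.0383) and -0.97 for Axin2 (adjusted p = 0.0427). Over the 12 fits that left out 1 library each, the difference ranged from 0.68 to 0.94 for Sfrp1, from 1.32 to 1.90 for Wnt9b, from -1.79 to -1.38 for Wnt2b and from -1.12 to -0.83 for Axin2. The call was kept in 10 of the 12 fits for Sfrp1, 4 for Axin2, 3 for Wnt2b and 2 for Wnt9b, and with IgGK replicates 1 and 2 left out together none of the 4 was called. Organ, injury, day and length of treatment differ together and cannot be told apart.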

How the results depend on the processing

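Scaling was the choice that moved most kidney counts. Library-size scaling moved the median log2 fold change of all genes to 0.48 for IgGK against WTK, -0.19 for LepK against IgGK, 0.29 for LepK against WTK and -0.25 for the difference between organs. Of all genes called, it gave 7803 higher and 1178 lower in IgGK against WTK, where TMM gave 4253 and 3057. In LepK against IgGK it gave 408 and 2185, where TMM gave 858 and 1174. For the difference between organs it gave 249 and 1968, where TMM gave 754 and 777. It reversed Fzd4 (0.24), Fzd8 (0.0674), Lrp5 (0.26) and Lrp6 (0.24) in IgGK against WTK and Fzd1 (0.0407) in LepK against WTK. With it, members called higher and lower were 26 and 0 for IgGK against WTK, 0 and 7 for LepK against IgGK, 0 lower for LepK against WTK, and 1 and 6 for the difference between organs. Pathway genes were then 48 higher, 1 and 16, 2 lower, and 2 and 13, with 1 higher in lung.

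Without the filter on low counts, LepK against IgGK had 0 members higher and 5 lower, LepL against IgGL 7 and 2 (pathway genes 6 and 11), and the difference between organs 9 lower (pathway genes 10 lower). With DESeq2 the lung had 6 and 2 (pathway genes 4 and 11) and the difference between organs 4 lower (pathway genes 10 higher and 8 lower). With all 15 libraries in 1 fit, IgGK and LepK each had 1 member lower than WTK, LepK against IgGK had 0 higher, the lung had 4 and 3 (pathway genes 4 and 10) and the difference between organs 4 lower (pathway genes 8 lower). With only the 2 groups compared, LepK against IgGK had 0 higher. Calls among all genes moved too. In lung, 349 of all genes were higher and 463 lower in the main fit. There were 1515 and 1173 without the filter, 1236 and 1102 with DESeq2, and 1247 and 1046 with all 15 libraries. For the difference between organs, the main fit gave 754 and 777 of all genes. The same 3 alternatives gave 1096 and 1563, 1435 and 1491, and 976 and 1130. With no fold threshold, members lower were 5 for IgGK against WTK, 5 for LepK against IgGK and 4 for LepK against WTK. With a log2 fold change over 1 each of these was 0. FPKM in place of the per-length level gave 18 to 25 members at 1 or more. The cause of these shifts was not tested, except that fewer or more genes pass by construction when a threshold is moved.

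Leaving out 1 library gave 15 to 17 members higher and 1 to 2 lower in IgGK against WTK (pathway genes 25 to 30 and 8 to 10), 0 to 1 and 3 to 4 in LepK against IgGK (1 to 5 and 7 to 13), 12 to 15 and 1 to 3 in LepK against WTK (18 to 25 and 4 to 5), 0 to 7 and 0 to 3 in lung (0 to 7 and 0 to 15) and 0 to 2 and 0 to 5 for the difference between organs (2 to 13 and 0 to 8). Over the same fits, 0 to 1937 of all genes were called higher and 0 to 1602 lower in lung. For the difference between organs, 141 to 1853 of all genes were higher and 195 to 1910 lower. The 1 member lower in IgGK and in LepK against WTK came without WTK replicate 1. For the difference between organs, 5 were lower without IgGL replicate 1, and 0 were called in either direction without IgGK replicate 2 or IgGL replicate 2. An alternative chosen after seeing the data, without IgGK replicates 1 and 2, left LepK against IgGK with 0 members higher and 0 lower (pathway genes 1 and 1) and the difference between organs with 0 in each direction (pathway genes 0 and 0).

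Deviations of same-numbered libraries correlated at -0.097 to 0.227, with 0.227, 0.215 and -0.049 for replicates 1, 2 and 3 of IgGK and LepK. These few values cannot settle whether the numbers pair samples. With the replicate block, LepK against IgGK had 0 members higher, the lung 0 and 0 (pathway genes 0 and 0) and the difference between organs 0 lower (pathway genes 3 lower). Of all genes, that block left 1 higher and 3 lower in lung, and 468 and 538 for the difference between organs. Adjusted p values with the block were 0.0735 for Sfrp1 and 0.0823 for Wnt2b in lung. In the difference between organs they were 0.0527 for Axin2 and 0.0649 for Wnt2b.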
